A study of Sus scrofa with 63 samples.

Results

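Fetal jejunum of pigs was compared between sires of different breeds within a single breed of sow, at day 90 of gestation. The comparison rested on 15 male fetuses of the 63 in the series, 9 titled LWMS and 6 titled MSMS, chosen by their titles alone. All 15 were carried by Meishan (MS) sows. The LWMS fetuses were crossbred, with a Large White (LW) sire and an MS sow, whereas the MSMS fetuses were purebred, with MS on both sides. Per the study's methods, sows were inseminated with a mixture of LW and MS semen, so a litter could hold both kinds of fetus, and the sire's breed was assigned afterwards from genotype. Fetuses carried by LW sows (9 purebred LWLW and 8 crossbred MSLW at day 90) and fetuses of MS sows at day 110 (9 LWMS and 7 MSMS) served as separate sets in which the same difference between sires was measured. The labels name no sow, so litter mates were treated as independent and p-values measure the spread between these fetuses.

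The jejunum is the middle part of the small intestine, and its absorptive epithelium matures late in gestation. LW is a European breed selected for lean growth, and MS is a Chinese breed whose piglets are known for being mature and viable at birth. Fetuses of the same sow breed that differ in their sire differ in the chromosome set received from the father. Mitochondrial DNA comes from the sow, and a male fetus also takes its X chromosome from the sow and its Y chromosome from the sire, so MSMS and LWMS both carried an MS mitochondrial genome and an MS X chromosome. A microarray probe reports how much transcript hybridises to its short sequence, so that a base that differs between breeds within the probe's target, an exon used in one breed only and a difference in transcript amount all enter the same signal.

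RNA was hybridised to one-colour arrays, and levels are given as log2 signal after subtracting each array's own 75th percentile. A spot counted as well above background by the scanner software's own flag. On the 15 arrays, 59.2% to 87.6% of probes were well above background in LWMS (median 64.5%) and 63.5% to 75.1% in MSMS (median 71.3%). The group means differed by -3.91 percentage points (exact two-sided permutation test over 5005 assignments, p = 0.338). LWMS fetus 823 had the 87.6%, with the next LWMS array at 67.5%, and MSMS fetus 532 had 1417 spots marked as outliers by the scanner software, so the results that either of them moves most are also given without it. No pair among the 15 arrays held identical values. Of 10 epithelial markers, 7 were tested, and these were well above background on all 15 arrays and did not pass the test between the groups.

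The probes with the leading differences are printed here because the results below turn on what single probes of a gene report. Each is an oligonucleotide of 60 bases as given in the scanner files, 5′ to 3′. Capitals mark the 48 bases shared by a pair of MMRN2 probes.
Unnamed, A_72_P417829: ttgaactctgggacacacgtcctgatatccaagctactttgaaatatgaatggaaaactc
MMRN2, A_72_P512357: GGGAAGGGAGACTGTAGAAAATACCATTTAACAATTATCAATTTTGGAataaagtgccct
MMRN2, A_72_P382258: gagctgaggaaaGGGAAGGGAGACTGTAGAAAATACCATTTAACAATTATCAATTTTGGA
MTFP1, A_72_P184536: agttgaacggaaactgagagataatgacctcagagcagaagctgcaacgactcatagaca
TMOD3, A_72_P302654: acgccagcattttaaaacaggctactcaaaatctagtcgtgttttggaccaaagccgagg
BCAS2, A_72_P643895: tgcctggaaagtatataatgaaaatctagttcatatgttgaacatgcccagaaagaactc
CYCS, A_72_P592869: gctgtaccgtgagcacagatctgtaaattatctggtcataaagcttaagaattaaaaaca
CYP2C42, A_72_P176011: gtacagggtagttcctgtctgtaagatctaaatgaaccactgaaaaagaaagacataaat
PMAP-36, A_72_P414028: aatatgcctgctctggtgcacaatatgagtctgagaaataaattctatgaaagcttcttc

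With an LW rather than an MS sire, probes of MTFP1, of CYP2C enzymes and of MMRN2, TMOD3 and METTL7B were higher. So were 1 of the 13 CYCS probes and 1 of the 11 BCAS2 probes. Probes of the antimicrobial peptide PMAP-36 and of 2 class I SLA genes were lower, as was 1 of the 3 DLGAP4 probes. Of 40515 probes tested, 292 (0.721%) had an adjusted p under 0.05 with limma. Of these, 264 (0.652% of probes tested) were higher in LWMS and 28 (0.0691%) were lower. A probe was tested if 75% of the arrays of any group stood well above background, and 6 of the 28 lower probes passed that filter only through MSMS at day 90, the group where they were high, as 1 of the 264 higher probes did only through LWMS at day 90. At an unadjusted p under 0.05 there were 2414 probes, 1479 higher and 935 lower. The median difference over all tested probes was 0.00469, and 51% were positive. Higher probes made up 90.4% of the calls, and they made up 78.5% of the 665 calls that limma gave with array weights. Differences of the higher probes ran from 0.46 to 7.06 on the log2 scale (median 1.29), and those of the lower probes from -5.28 to -0.60 (median -1.41). The groups did not overlap in 115 of the 292 probes, against 0.489% of all tested probes. LWMS was above MSMS in 111 of these and below in 4. Over all tested probes without overlap, LWMS was above in 174 (0.429%) and below in 24 (0.0592%). A difference of at least 3 was found in 37 higher probes. At the threshold, ATHL1 (adjusted p = 0.0497) and SHISA2 (adjusted p = 0.0498) lay just inside, and O10866, a probe of a guanylate-binding protein (adjusted p = 0.0501), and PAK2 (adjusted p = 0.0508) lay just outside. O10866 is named GBP6 in the names used here and GBP7 in the study. Of the called probes, 110 carried a gene name, with 94 different names among them, and 182 carried none.

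The largest difference belonged to a probe without a gene name, A_72_P417829. Its levels in LWMS were -1.03 at the lowest, -0.71 at the median and -0.38 at the highest, and in MSMS they were -8.49, -7.80 and -6.86. Every LWMS array was well above background and no MSMS array was. LWMS was at least 30.4-fold higher, with the dim arrays set at the lowest signal well above background on them, and the measured means differed by 7.06 ± 0.27 (standard error, adjusted p = 1.23e-29). A second unnamed probe, A_72_P434844, was at least 15.7-fold higher by the same rule (adjusted p = 4.66e-06). In all, 22 called probes were well above background on no MSMS array, and 4 of them on all 9 LWMS arrays.

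MTFP1 encodes a protein of the inner mitochondrial membrane that acts in mitochondrial fission. Its probe A_72_P184536 ranged from -1.25 to -0.22 in LWMS (median -0.67) and from -5.10 to -2.36 in MSMS (median -4.55). The groups did not overlap, and fetus 532 was the highest MSMS fetus. The difference was 3.54 ± 0.26 (standard error, adjusted p = 1.56e-15). CYCS encodes cytochrome c, the electron carrier of the respiratory chain. Probe A_72_P592869 of CYCS ranged from 2.37 to 3.62 in LWMS (median 3.02) and from -5.03 to 2.60 in MSMS (median -2.78). MSMS fetuses 826 and 766, at 2.26 and 2.60, lay at or near the LWMS levels and the other MSMS fetuses far below. The difference was 4.81 ± 0.97 (standard error, adjusted p = 0.00224), and with array weights its adjusted p was 0.168. The 12 other CYCS probes differed by -0.41 to 0.22, and none passed.

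Members of the CYP2C family, microsomal cytochrome P450 enzymes that oxidise drugs and other foreign compounds, were higher with an LW sire. CYP2C42 ranged from 0.37 to 2.44 in LWMS (median 1.38) and from -8.09 to 0.29 in MSMS (median -1.69). The groups did not overlap, by a small margin, and MSMS fetuses 826 and 827 were not well above background. The CYP2C42 difference was 4.70 ± 0.75 (standard error, adjusted p = 3.49e-05), and its adjusted p was 0.0793 in a fit of these 15 fetuses alone. CYP2C49 probe A_72_P146661 ranged from 0.40 to 3.68 in LWMS (median 2.51) and from -2.92 to 0.03 in MSMS (median -1.04), again without overlap. It differed by 3.62 ± 0.70 (standard error, adjusted p = 0.00138). CYP2C34 was higher by 4.36 (adjusted p = 0.0331) in a probe that lost its call in 8 of 15 fits that left out a fetus and after normexp correction (2.58, adjusted p = 0.149), and by 3.13 (adjusted p = 0.0129) in a second probe, which lost it without fetus 524 or 532, where the highest adjusted p was 0.0668. The family's genes are near-identical in places, so a probe named for one member may also hybridise to another, and these values are uncertain as to the member.

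Genes of other functions led the remaining higher calls. MMRN2 encodes multimerin-2, a matrix protein of endothelium. Its probe A_72_P512357 ranged from -3.72 to -1.94 in LWMS (median -3.05) and from -8.34 to -7.17 in 5 MSMS fetuses (median -7.86), the spot of fetus 532 being left out as an outlier. The groups lay apart, but the probe was well above background on only 1 MSMS array. The measured means differed by 4.92 ± 0.55 (standard error, adjusted p = 6.79e-09), and by 1.39 with normexp correction (adjusted p = 0.0161). In the authors' own processed values, in contrast, this probe differed by 1.14 (adjusted p = 0.69). BCAS2 is a spliceosome component. Levels of its probe A_72_P643895 were -1.59 to -0.38 in LWMS (median -0.95) and -7.38 to -3.19 in MSMS (median -4.63), without overlap. Only 3 MSMS fetuses were well above background. This BCAS2 probe differed by 4.09 ± 0.47 (standard error, adjusted p = 9.24e-09), while the 10 other BCAS2 probes, from 0.03 to 0.48, did not pass. TMOD3, which caps the slow-growing ends of actin filaments, ranged from -1.44 to 0.72 in LWMS (median -0.96) and from -5.20 to -3.83 in MSMS (median -4.21). The TMOD3 groups did not overlap, and LWMS fetuses 823, 825 and 954 stood above the other LWMS fetuses. The difference was 3.74 ± 0.37 (standard error, adjusted p = 1.86e-10). METTL7B, a methyltransferase of the endoplasmic reticulum and lipid droplets, was well above background on 1 of 6 MSMS arrays, and the measured means differed by 3.96 ± 0.47 (standard error, adjusted p = 2.83e-08). AQP10, an intestinal channel for water and glycerol, was also well above background on 1 MSMS array and differed by 3.17 ± 0.62 (standard error, adjusted p = 0.00149), while its 2 other probes, at 1.17 and 1.21, did not pass. A probe of the chemokine CCL14 was well above background on no MSMS array and was at least 2.97-fold higher in LWMS (adjusted p = 2.26e-06). The other CCL14 probes, at -0.06 and -0.54, did not pass. FAM118A, of unsettled function, ranged from -0.14 to 0.47 in LWMS (median 0.30) and from -2.48 to -1.44 in MSMS (median -1.79), and differed by 2.12 (adjusted p = 2.92e-09). Differences against dim MSMS arrays depended on how background was treated. With normexp background correction they were 2.97 for A_72_P417829, 2.22 for the MTFP1 probe A_72_P184536, 2.22 for BCAS2, 2.38 for TMOD3 and 1.24 for METTL7B, all of which passed, while AQP10 (1.12, adjusted p = 0.105) and CCL14 (0.65, adjusted p = 0.128) did not.

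**Figure D1:**
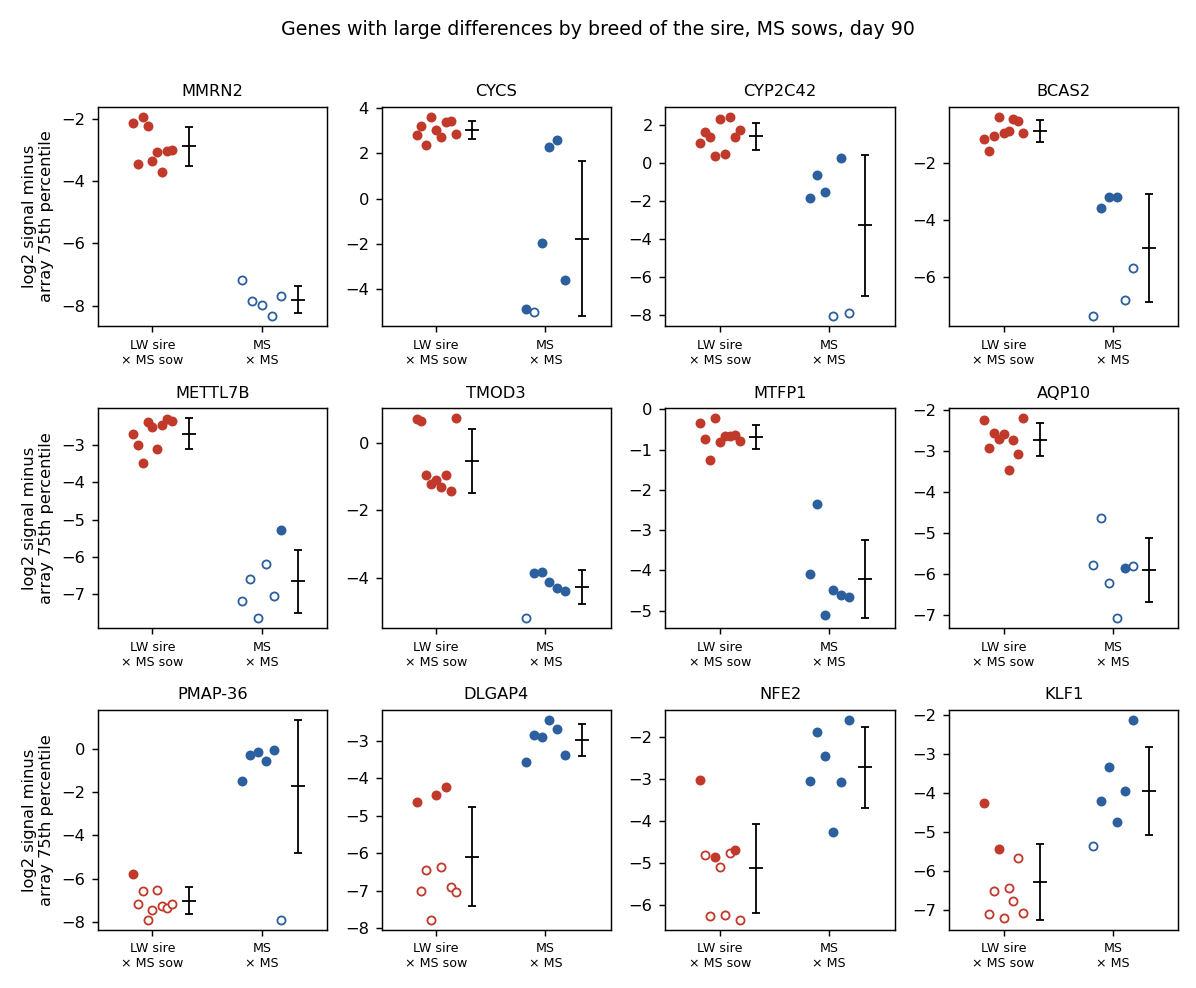
Levels of the leading genes at day 90, as log2 signal relative to the array's 75th percentile, with a point per fetus for LWMS (LW sire, n = 9) and MSMS (MS × MS, n = 6), open where the spot was not well above background, and bars for mean ± SD. MTFP1, MMRN2, BCAS2 and TMOD3 lie higher in all LWMS fetuses than in any MSMS fetus, while CYCS in MSMS is spread from -5.03 to 2.60 and PMAP-36 is low in 1 MSMS fetus.

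The lower genes were fewer, and their groups mostly overlapped. PMAP-36, a cathelicidin antimicrobial peptide of myeloid cells, ranged from -7.89 to -5.80 in LWMS (median -7.18) and from -7.88 to -0.04 in MSMS (median -0.42). Of the MSMS fetuses, 5 were well above background, and fetus 827 was as low as the LWMS fetuses, of which 1 was well above background. The measured means differed by -5.28 ± 1.17 (standard error, adjusted p = 0.00784), and by -2.69 with normexp correction. DLGAP4, a scaffold protein of the postsynaptic density, ranged from -7.78 to -4.22 in LWMS (median -6.44) and from -3.58 to -2.45 in MSMS (median -2.88). The groups did not overlap, and the difference was -3.12 ± 0.73 (standard error, adjusted p = 0.0166), or -1.07 with normexp correction. Other DLGAP4 probes, at -0.13 and 0.20, did not pass. The calls of PMAP-36 and DLGAP4 held whichever fetus was left out.

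Probes of KLF1 and NFE2, transcription factors of red cell precursors, entered the test only through MSMS at day 90, where they were high. KLF1 ranged from -7.19 to -4.27 in LWMS (median -6.52) and from -5.35 to -2.14 in MSMS (median -4.08), and NFE2 from -6.36 to -3.03 (median -4.84) and from -4.27 to -1.59 (median -2.74). The groups overlapped in both genes, and LWMS fetus 823 was the highest for NFE2. The differences were -2.32 (adjusted p = 0.0296) for KLF1 and -2.41 (adjusted p = 0.039) for NFE2, and the calls were lost in 9 and 10 of the 15 fits that left out a fetus. Another, brighter KLF1 probe, well above background on every array of both groups, differed by -0.83 and did not pass (adjusted p = 0.135). With no filter on dim probes the NFE2 call was lost (adjusted p = 0.0633), and with normexp correction both were, at -0.71 (adjusted p = 0.208) for KLF1 and -0.898 (adjusted p = 0.164) for NFE2. Of 8 erythroid marker genes tested, 0 passed and 8 had a negative difference, with a median of -0.80 against -0.0086 over all 10788 genes tested. The median was -0.509 with normexp correction, -0.542 over 6 genes in the authors' processed values and -0.591 without MSMS fetus 827. Their summed linear level, relative to that percentile, was 15 to 32.8 in LWMS and 19.9 to 45.7 in MSMS. HEMGN, a nuclear protein of blood cell precursors, differed by -0.77 (adjusted p = 0.0809). In a piece of whole jejunum, fewer cells of a type cannot be told apart from less RNA per cell, and the part of erythroid cells in the KLF1 and NFE2 differences was not tested.

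Class I genes of the swine leukocyte antigen complex, which present peptides to T cells, were lower in LWMS where they passed. SLA-8 probe A_72_P541846 ranged from -1.70 to -0.96 in LWMS (median -1.40) and from -1.30 to 0.66 in MSMS (median 0.25). The groups overlapped through the lowest MSMS fetus. The difference was -1.25 ± 0.28 (standard error, adjusted p = 0.00757), and the call was lost without fetus 532 (adjusted p = 0.0541). A near copy of this SLA-8 probe was called at -0.96 (adjusted p = 0.0492). The remaining SLA-8 probes, at -0.26 (adjusted p = 0.638) and -0.33 (adjusted p = 0.953), did not pass. SLA-3 differed by -0.998 ± 0.25 (standard error, adjusted p = 0.0378), while its 7 other probes, from -0.86 to -0.31, did not pass. The SLA-3 call was lost in 9 of the 15 fits that left out a fetus, with an adjusted p of up to 0.186, and in 7 of 13 other alternatives. These genes are alike in sequence and highly variable between animals, so that the member measured is uncertain. RETN, the hormone resistin (-2.13, adjusted p = 0.0475), RNF144B, a ubiquitin ligase (-1.84, adjusted p = 0.0277), TRIM46, a protein of neuronal microtubules (-1.46, adjusted p = 0.0219), and EIF2S3, a subunit of the translation initiation factor eIF2 (-0.83, adjusted p = 0.0438), were also lower. Each of these 4 lost its call in at least 5 of the 15 fits that left out a fetus. Without fetus 532, the highest for RNF144B, that gene differed by -1.41 (adjusted p = 0.24).

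Probes of the same gene often gave different answers. Genes were counted by name, so that TRMT10B and its older symbol RG9MTD3 count apart. Of the 94 called names, 33 had 1 tested probe, and among the 61 with several, 6 had all their probes called and 48 had 1. The 161 other probes of these genes that did not pass had the same sign in 119 cases and a difference under 50% of the called one in 130. CYCS is the plainest case, with 1 probe of 13 called. BCAS2 had 10 other probes, from 0.03 to 0.48 beside 4.09. DLGAP4 had other probes at -0.13 and 0.20 beside -3.12. In MMRN2, other probes were called at 3.50 and 1.99, but A_72_P382258, which shares 48 bases with A_72_P512357 as printed above, differed by 1.38 (adjusted p = 0.807). CYP2C49 showed the opposite pattern, with other probes called at 3.45 and 2.97 and the remaining one at 2.68 (adjusted p = 0.135). MSRB2, a mitochondrial methionine sulfoxide reductase (1.099 and 0.995), and RNLS, a flavoprotein oxidase (1.57 and 1.16), both named after their values were seen, were likewise called in 2 probes that share at most 6 bases. The remaining RNLS probes, at 0.84 (adjusted p = 0.29) and, with the opposite sign, -0.46 (adjusted p = 0.869), did not pass.

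Some probes of different names carry the same sequence, and they measure how well a single oligonucleotide repeats. The 292 called probes held 285 distinct sequences. The MTFP1 sequence printed above is spotted under 2 names and differed by 3.54 and 3.62. The CCL14 sequence differed by 2.96 and, under a name without a gene, by 2.59 (adjusted p = 5.85e-08), and that of KLF1 by -2.32 and -2.08 (adjusted p = 0.0282). For RETN, the call did not repeat, with -2.13 (adjusted p = 0.0475) in one probe and -1.75 (adjusted p = 0.474) and -2.12 (adjusted p = 0.139) in its 2 copies. LCK, a kinase of T cells, was higher by 0.76 (adjusted p = 0.00721), but the same 60 bases are also listed for TXLNA (0.73, adjusted p = 0.0136), so the gene measured is uncertain, and the 3 other LCK probes lay between -0.39 and -0.09. Copies or near copies also made up the paired calls of FAM118A (57 shared bases), SLA-8 (55 shared bases) and, named after their values were seen, RANBP1, a regulator of nuclear transport (0.77 and 0.73), and MED27, a Mediator subunit (1.104 and 1.05). The remaining RANBP1 probes, at 0.04, -0.07, -0.23 and -0.31, did not pass.

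**Figure D2:**
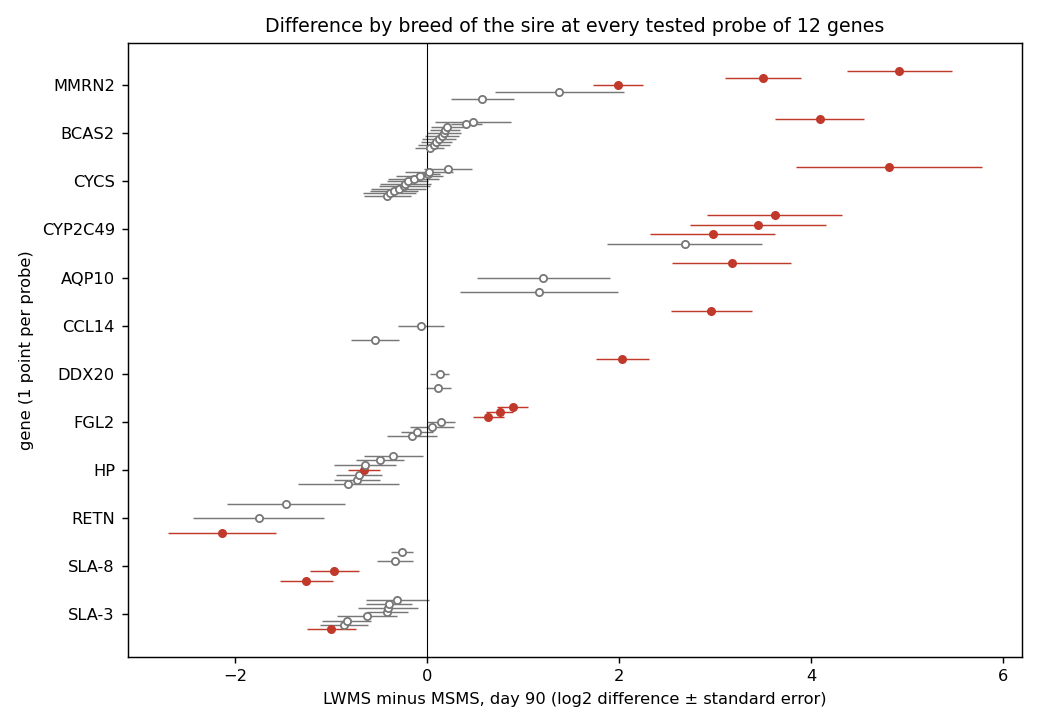
Difference LWMS minus MSMS at day 90 (log2) of every tested probe of 12 called genes, with a point and its standard error per probe, and called probes filled in red. The called CYCS and BCAS2 probes stand far from the other probes of the same gene, whereas the CYP2C49 probes lie together.

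The same difference between sires was then measured in fetuses that the comparison did not use. At day 110, LWMS minus MSMS in MS sows gave 443 calls (1.09% of probes tested), with 347 higher (0.856%) and 96 lower (0.237%). Of the 264 probes higher at day 90, 261 had the same sign at day 110 and 151 (57.2%) were called there, with a median of 0.945, and 210 were smaller in size than at day 90. Over all tested probes, 58.2% had the same sign and 1.04% were called at day 110 in the direction of day 90. Of the 28 lower probes, 26 had the same sign and 4 were called, with a median of -0.72. In LW sows at day 90, LWLW minus MSLW gave 271 calls (0.669%), with 96 higher (0.237%) and 175 lower (0.432%). Of the 264 higher probes, 255 had the same sign there and 29 (11%) were called, with a median of 0.52, and 260 of them were smaller in size than in MS sows. The probes had been chosen by their difference in MS sows at day 90. Over all tested probes, 54.8% had the same sign in LW sows and 0.622% were called there in the direction of MS sows. Of the 28 lower probes, 25 had the same sign in LW sows and 1 was called, with a median of -0.53. No called probe was called with the opposite sign in either set. The 37 probes with a difference of at least 3 had a median of 3.74 in MS sows at day 90, 3.78 at day 110 and 1.05 in LW sows, and 31 of them were called at day 110 and 7 in LW sows.

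In all 3 contrasts, 19 probes were called with the same sign, all of them higher. MTFP1 (A_72_P184536) differed by 3.54 at day 90, by 5.38 at day 110 and by 1.04 in LW sows (adjusted p = 0.0164). CYP2C49 (A_72_P146661) differed by 3.62, 3.42 and 2.48, and CYP2C34 (A_72_P292173) by 4.36, 4.91 and 4.05. A CCL14 probe (A_72_P319548) differed by 2.96, 1.53 and 1.52, and another MMRN2 probe (A_72_P706677) by 1.99, 1.98 and 0.9998. The other CCL14 probes did not follow, at -0.06 and -0.54 at day 90, -0.32 and -0.15 at day 110 and 0.11 and -0.20 in LW sows. TSPYL1, a nucleosome assembly protein (1.28, 0.78 and 0.95), TRMT10B, a transfer RNA methyltransferase (0.79, 0.64 and 0.50), and RCN2, a calcium-binding protein of the endoplasmic reticulum (0.48, 0.46 and 0.57), completed the named set. The other TSPYL1 probes were at 0.14 and -0.10 at day 90, -0.04 and -0.37 at day 110 and 0.08 and 0.13 in LW sows. The RCN2 call at day 90 (adjusted p = 0.0466) was lost in 12 of the 15 fits that left out a fetus.

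**Figure D3:**
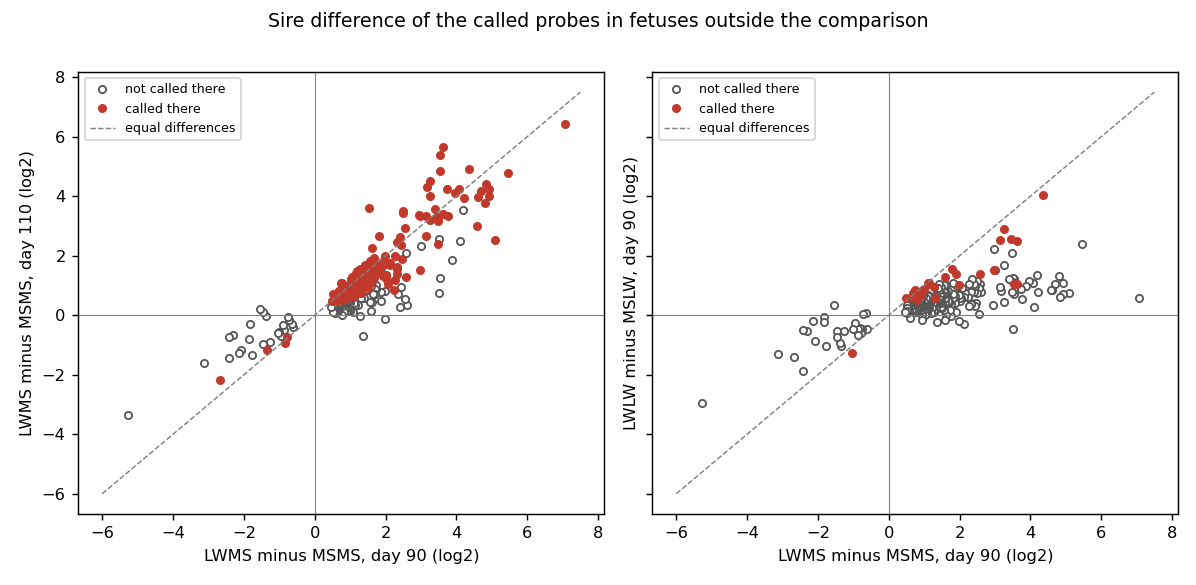
Difference between an LW and an MS sire (log2) for the 292 called probes, with the value in MS sows at day 90 on the x axis and that in MS sows at day 110 or in LW sows at day 90 on the y axis (right panel LWLW minus MSLW), filled where called there, beside a dashed line of equal differences. Signs match in 287 probes at day 110 and in 280 in LW sows, and the difference is smaller in size than at day 90 in MS sows in 237 probes at day 110 and in 287 in LW sows.

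The interaction with age, which asks whether the difference between sires changed from day 90 to day 110 in MS sows, gave 0 calls with limma and 0 with an ordinary linear model, against 977 probes at an unadjusted p under 0.05, and limma with array weights gave 7. The interaction with the breed of the sow at day 90 gave 18 calls (0.0444%), all with a more positive difference in MS sows, of which 17 were also called between LWMS and MSMS. In those named here, MSMS stood low and the other 3 genotypes stood closer together. For A_72_P417829, group means were -0.66 in LWMS, -7.73 in MSMS, 0.46 in LWLW and -0.11 in MSLW, and the differences between sires were 7.06 in MS sows and 0.56 in LW sows (interaction 6.50, adjusted p = 7.99e-21). MMRN2 (A_72_P512357) had means of -2.89 in LWMS, -7.80 in MSMS, -2.14 in LWLW and -3.22 in MSLW (interaction 3.84, adjusted p = 0.00785). For BCAS2 (interaction 3.001, adjusted p = 0.034), the medians were -0.95 in LWMS, -4.63 in MSMS, 0.01 in LWLW and -1.14 in MSLW. For TMOD3 (2.85, adjusted p = 0.00376), they were -0.96, -4.21, -0.23 and -0.99. MTFP1 (2.50, adjusted p = 2.26e-05) and FAM118A (1.52, adjusted p = 0.0259) passed as well. The CYP2C49 interaction was 1.14 (adjusted p = 0.931), so a difference in its sire effect between sow breeds was not detected. The CYCS probe did not pass (3.50, adjusted p = 0.931). All 4 groups at either age with an LW sire had CYCS levels of at least 2.37, whereas the lowest fetus was at -5.03 in MSMS and -4.69 in MSLW at day 90 and at -4.26 in MSMS at day 110. Of the 18 probes, 7 were well above background on at most 1 MSMS array, and the count fell to 2 after normexp correction and to 6 in the authors' processed values.

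**Figure D4:**
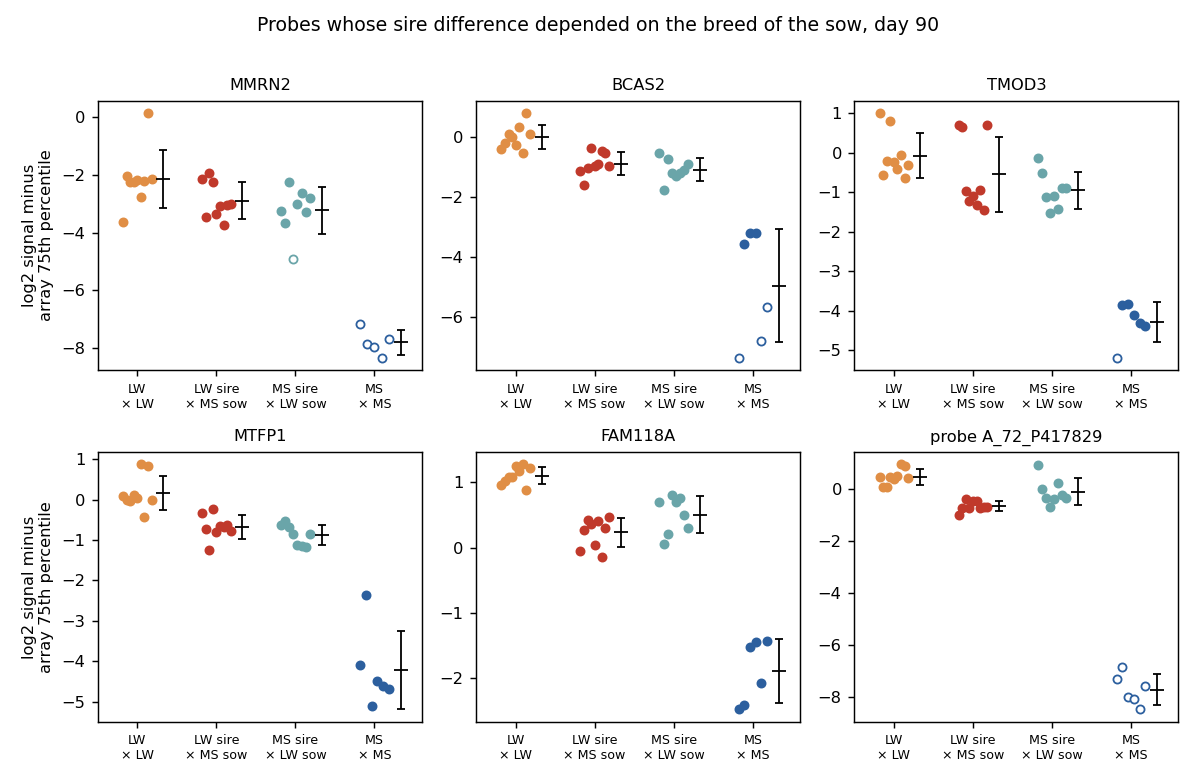
Levels at day 90 of probes called for the interaction with the breed of the sow, as log2 signal relative to the array's 75th percentile, with a point per fetus for LWLW, LWMS, MSLW and MSMS, open where not well above background, and bars for mean ± SD. MSMS lies lowest in each panel and the other genotypes lie closer together.

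Genes whose parental origin is fixed were read separately. None of 15 tested paternally expressed imprinted genes passed, with a median difference of 0.11 and a range from -1.40 (MAGEL2, adjusted p = 0.0548) to 0.36 (IGF2, the fetal growth factor, adjusted p = 1). MAGEL2 did pass with normexp correction (-0.80), in the authors' processed values (-0.95), with array weights (-1.76), and in the fits without fetus 823 (-1.52), 532 (-1.57) or 504 (-1.52) or without 823 and 532 together (-1.68), with adjusted p-values of 0.000239 to 0.037. None of 10 maternally expressed imprinted genes passed either, with a range from -0.11 to 0.19 (IGF2R) and H19 at 0.09. The 3 tested Y-linked genes, which came from boars of different breeds, ranged from -0.097 to 0.0086. The 13 genes of the mitochondrial genome had a median of -0.0775 and 0 calls. On the X chromosome, 1 of 766 named probes passed (0.131%, EIF2S3), and on the autosomes 102 of 20430 did (0.499%). EIF2S3 ranged from 2.39 to 3.31 in LWMS (median 2.88) and from 3.27 to 4.14 in MSMS (median 3.63). The groups overlapped only at their edge, and at day 110 the difference was -0.95 (adjusted p = 0.0054).

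Lists of genes for functions of the jejunum were counted with 1 probe a gene, the brightest. Over all 10788 genes, 49 were called higher and 5 lower (0.501%). Xenobiotic metabolism had 2 calls among 32 genes, CYP2C42 and CYP2C49, and a median of 0.088. Lymphocyte markers had 1 call among 20, the LCK probe that is also listed for TXLNA, and a median of -0.145. All other lists had 0 calls at the brightest probe. Dimmer probes were called for SLA-8 and SLA-3 among the genes of antigen presentation. Dimmer probes of HP among the plasma proteins (-0.65, adjusted p = 0.0292) and of CASQ2 in smooth muscle (1.44, adjusted p = 0.0156) were called as well. The median was -0.47 for 26 interferon response genes, 25 of which had a negative difference, and 10 had an unadjusted p under 0.05. Among all 10788 genes, 578 had an unadjusted p under 0.05 and 5183 had a positive difference. RSAD2 differed by -1.98 (adjusted p = 0.183), ISG15 by -1.38 (adjusted p = 0.459) and MX1 by -1.24 (adjusted p = 0.534). ISG15 ranged from 0.32 to 1.77 in LWMS (median 1.001) and from 1.12 to 3.75 in MSMS (median 2.32), so the groups overlapped. Under other scalings the median of the interferon list was -0.487 to -0.393. The 24 genes of antigen presentation had a median of -0.219, with 22 negative and 8 at an unadjusted p under 0.05.

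The lists of absorptive functions gave medians within about 0.1 of that of all genes. The 18 brush border enzymes, which digest sugars and peptides at the cell surface, had a median of -0.0356, the 20 genes of lipid absorption -0.103 and the 23 of hexose transport and metabolism 0.0792. Medians were -0.264 for 10 goblet cell and mucus genes, of which 9 were negative, 0.0629 for 13 enteroendocrine genes, -0.0534 for 14 crypt and Wnt genes and -0.0474 for 20 cell cycle genes. For other tissues that a piece of jejunum can hold, medians were 0.119 for 13 smooth muscle genes, -0.0387 for 13 genes of enteric neurons and glia, 0.0596 for 10 endothelial genes, -0.0955 for 17 macrophage genes and -0.585 for 6 genes of exocrine pancreas. Without MSMS fetus 532, the median was -0.0825 for goblet cell and mucus genes, 0.0126 for macrophage genes and -0.272 for exocrine pancreas. The enteroendocrine median turned sign without MSMS fetus 826 (-0.0475), 952 (-0.0355) or 766 (-0.00345) or LWMS fetus 508 (-0.0608) or 520 (-0.0602). Steroid synthesis (15 genes, 0.0145), heat shock and immediate early genes (15 genes, -0.0325) and growth signalling (25 genes, 0.0789) had no calls. Among 12 plasma protein genes (median -0.245, or -0.101 without MSMS fetus 524), APOH, a phospholipid-binding plasma glycoprotein, ranged from -1.40 to 1.28 in LWMS and from -4.90 to -2.52 in MSMS. Its groups did not overlap, yet the difference of 3.59 ± 1.104 (standard error) did not pass (adjusted p = 0.155) with the spread shared across the 8 groups.

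**Figure D5:**
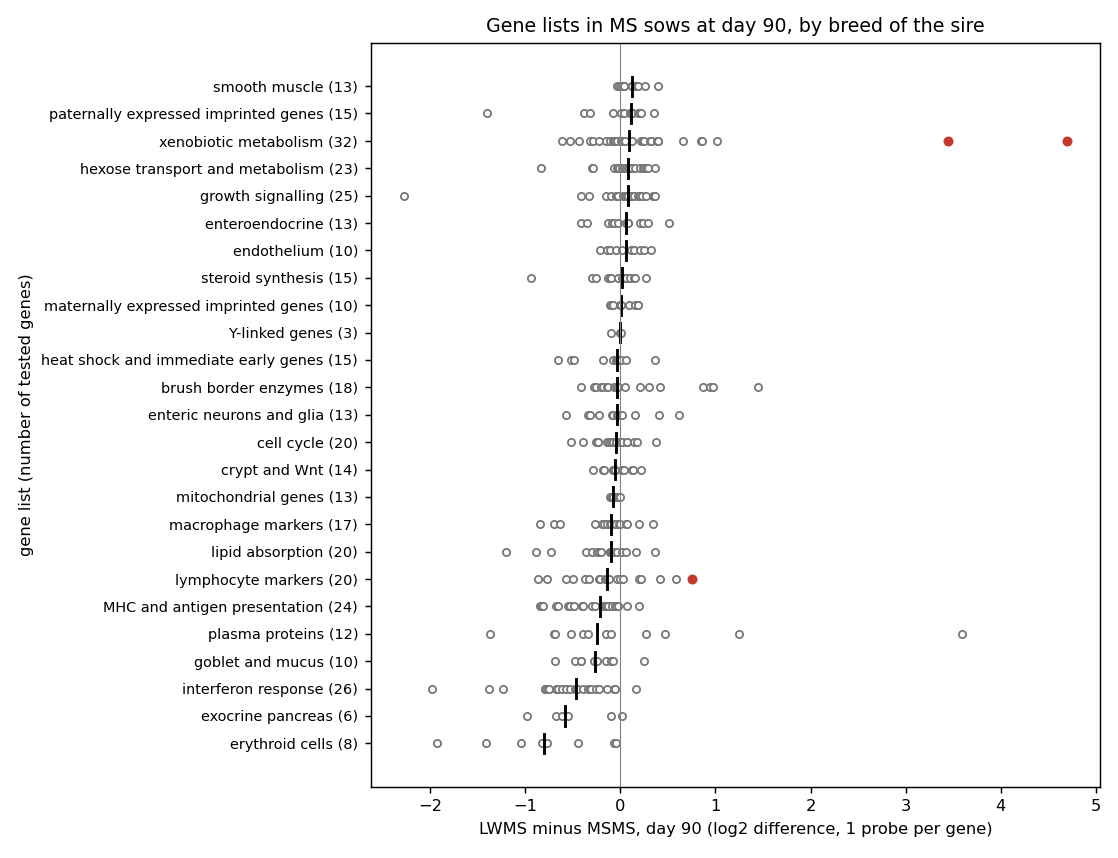
Difference LWMS minus MSMS at day 90 (log2) of the tested genes of each list, 1 probe a gene, with a point per gene, filled in red where called, and a bar at the median of the list. The interferon and erythroid lists have medians of -0.47 and -0.80, and exocrine pancreas, with 6 genes, has a median of -0.585.

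The study reported no probe affected by the sire's genotype, in a mixed linear model of both parents' genotypes, gestational age and their interactions. In a separate model of gestational age and fetal genotype, the study did call probes for fetal genotype, alone or together with age. Neither model was run here. The 292 calls come from a contrast of group means without a term for the sow, so these results rest on different models. Genes that the study names, for differences by age and genotype or by the breed of the sow, did not pass between these groups. CYP11A1, the enzyme of the first step of steroid synthesis, differed by -0.94 (adjusted p = 0.334). GBP1, an interferon-induced GTPase, differed by -0.62 (adjusted p = 0.318), and its groups did not overlap. PPARGC1A, a regulator of mitochondrial biogenesis, differed by 0.37 (adjusted p = 0.905). G6PC and PCK1, enzymes of glucose production, differed by -0.84 and -0.29, and IGF1R, the receptor for insulin-like growth factor, by -0.15. SMS, SRPX2, CD163, MAP2K1, MTOR and CCL2 lay between -0.08 and 0.08 (adjusted p = 1 for each). The CCL2 sequence is also spotted under another probe name, where it differed by 0.39 and did not pass either.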

How the data were processed

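Jejunum RNA of 63 male pig fetuses was hybridised to one-colour 60-mer arrays on 8 slides. The deposited scanner files, written per the file headers by Agilent Feature Extraction 10.10.1.1, give an intensity per spot after background subtraction by that software, together with flags for outlier and well above background spots. The authors also deposited a processed log2 table of 39446 probes, made with limma and used here only as an alternative.

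Outlier spots were set as missing, the processed intensity was taken to log2, the 75th percentile of each array was subtracted, and spots of a probe were averaged. A subtracted percentile removes a shift of a whole array, so only differences relative to the array remain. Of 60305 probes, 40515 were tested, those whose signal stood well above background in 75% or more of some group's arrays. Groups were taken from the sample titles. A limma 3.58.1 fit (R 4.3.3) of 8 group means over the 63 fetuses, with moderated variances, gave two-sided p-values adjusted by Benjamini-Hochberg over all tested probes, and an adjusted p under 0.05 was called. The sow, a random effect in the study's model, is not in the labels and was not a term. Group sizes limit the precision. The fit was checked on simulated data.

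Members and gene lists were chosen with earlier results of these data known. Named genes were the up to 10 largest called differences in each direction, with 1 probe a gene that passed this 75% minimum in LWMS or MSMS, called genes of the lists, the up to 8 genes with the lowest p among those called alike in all 3 sire contrasts, the leading interaction genes and the study's genes. Gene names came from the scanner files and a RefSeq table, and 22664 tested probes had 1 name. PF4, one of the study's genes, was not tested. Alternatives were normexp correction (offset 50), the authors' table, quantile and median scaling, other filters, the slide as a block, array weights, the 15 fetuses alone, an ordinary linear model, other thresholds and leaving out fetuses.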

Additional observations from a re-analysis of the deposited data

Results flagged for a closer look

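Among 96 sets of values in the 2 groups, 8 held a fetus far from the rest of its group, where chance gives about 1 in 20. LWMS fetus 823 had 87.6% of probes well above background, with the next at 67.5%. The same fetus was highest for NFE2, at -3.03 with the next at -4.70. In LWMS, fetus 525 was lowest for MTOR, at 1.48 with the next at 1.71. MSMS fetus 532 stood highest for both MTFP1 probes, at -2.36 (next -4.08) and -2.27 (next -4.37), and for RNF144B, at -1.70 (next -3.86). MSMS fetus 827 was lowest for PMAP-36, at -7.88 with the next at -1.50, and for IGF1R, at 0.67 with the next at 1.25. Without fetuses 823 and 532 together, a setting chosen after seeing the data, 211 probes were called between LWMS and MSMS in place of 292.

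The difference between sires differed by the breed of the sow, tested as an interaction at day 90, in 18 probes. The interaction was 6.50 for A_72_P417829, 3.84 for MMRN2, 3.001 for BCAS2, 2.85 for TMOD3, 2.50 and 2.57 for the MTFP1 probes, which have the same sequence, and 1.52 for FAM118A.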

How the results depend on the processing

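The count of probes called between LWMS and MSMS at day 90 was 292. It was 187 after normexp background correction, 665 with array weights, 165 with the adjusted p limit at 0.01 and a difference of 0.5 or more and 193 at a difference of at least 1. It ranged from 216 to 294 when 1 fetus was left out, and from 211 to 313 under the other alternatives. The interaction with age, 0 calls, gave 2 in the authors' table, with median centring, with the slide as a block and without LWLW fetuses 484 and 469, 7 with array weights, 1 with the compared fetuses alone, and 0 to 3 when 1 fetus was left out. The interaction with the breed of the sow, 18 calls, gave 2 after normexp correction, 6 in the authors' table and 113 with array weights, and 13 to 21 when 1 fetus was left out. The causes were not tested. Of 46 named probes, 34 were called, and over the alternatives that left out no single fetus the call was kept 374 times and lost 60 times, against 417 and 93 when 1 fetus was left out. With the median over the other probes of the gene in place of the named one, the sign turned for CYCS (-0.21), DLGAP4 (0.0341), LCK (-0.18) and CCL14 (-0.30). Among genes that were not called, it turned for SMS with the slide as a block (-0.0287), for MAP2K1 without fetuses 823 and 532 (-0.0193), for MTOR with median centring (0.0378) and for CCL2 with median centring (0.0486), array weights (0.21) and without fetuses 823 and 532 (0.14). When 1 fetus was left out, values ran from -0.0102 to 0.175 for SMS, from -0.0527 to 0.199 for CD163, from -0.0942 to 0.000166 for MTOR and from -0.17 to 0.11 for CCL2. No paired analysis was possible because each fetus has its own number and the groups share none. Signals near background limit the differences of probes that were dim in MSMS.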
